A study of Mus musculus with 6 samples.

Results

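The genes described here are 10 genes of the integrated stress response and of serine and folate metabolism, measured in brown fat of cold-exposed mice. They were taken by symbol from the deposited table: the transcription factors Atf4, Atf5 and Ddit3, the pseudokinase Trib3, and the enzymes Chac1, Asns, Phgdh, Psat1, Shmt2 and Mthfd2. These symbols matched 11 of the 54385 rows, because Ddit3 has a second entry with 1.88 estimated counts in control library 3 and 0 in every other library. That entry did not pass the filter on low counts, and the other 10 rows did. The libraries were made from polyadenylated RNA of whole interscapular brown fat, a depot that burns fuel to make heat. In 3 knockout libraries (Adcy3-FL/FL/Adipoq-wt/cre) both alleles of Adcy3 were floxed and Adipoq-Cre was present. In 3 control libraries, called WT in the labels, the same floxed alleles were present without Cre (Adcy3-FL/FL/Adipoq-wt/wt). All the mice were C57BL/6N, ate a chow diet for 20 weeks and spent the last 24 hours at 5 °C. Adcy3 encodes adenylyl cyclase 3, which makes cyclic AMP, and Adipoq-Cre acts in adipocytes of every depot but not in the other cells of the tissue. Where the series text and the sample labels differ on depot and replicate number, the labels were followed.

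The integrated stress response starts when kinases that sense unfolded protein, amino acid shortage, viral RNA or haem loss phosphorylate the translation factor eIF2 alpha. Bulk protein synthesis then falls while the messenger RNA of ATF4 is translated more, so that the level of Atf4 RNA alone does not give the level of its protein. ATF4, often paired with a C/EBP protein, raises the transcription of genes for amino acid import and synthesis, tRNA charging, serine synthesis and mitochondrial folate metabolism. Serine made by PHGDH, PSAT1 and PSPH is split by SHMT2 in mitochondria, and MTHFD2 oxidises the folate-bound carbon that is released. Mitochondrial stress is a known trigger of this program in muscle and brown fat.

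A composite C/EBP-ATF site of the form TGATGNAA is the best known landing site of ATF4. It was searched on both strands, with the related forms TGACGNAA and TGGTGNAA and the cyclic AMP element TGACGTCA, in windows of 250 bases before to 50 bases after each RefSeq start (build GRCm38.p6). The third form was added after the members' windows had been read. All 10 genes matched a window and gave 12 windows in all. The sequences below are the 30 bases around each match upstream of a member's start, shown because genes that carry such a site had fold changes of opposite sign. Each is written 5′ to 3′ on the gene's own strand, with the matching letters in capitals.
Asns, 23 bases before the start, chr6:7693214-7693243, minus strand: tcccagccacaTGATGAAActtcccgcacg
Chac1, 193 bases before the start, chr2:119351038-119351067, plus strand: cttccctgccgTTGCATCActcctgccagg
Chac1, 250 bases before the start, chr2:119350992-119351021, plus strand: TGACGCAAtctgactcgcccttgctgcatg
Trib3, 33 bases before the start, chr2:152344075-152344104, minus strand: cgggtcacagaTGGTGCAAtcccgggccgc
Psat1, 136 bases before the start, chr19:15925177-15925206, minus strand: acgcgggtggcTGGTGCAAtcccctgctct
The upper Chac1 sequence and a further Trib3 match 15 bases after the start carry TGATGNAA on the opposite strand. The Asns match lies inside an exon of the GENCODE vM21 annotation, which begins that gene further upstream, and the other 4 printed matches lie outside the exons. TGATGNAA was found in 3 of the 12 member windows (Asns, Chac1 and Trib3), in 12.2% of 131 windows of the pathway genes described below, and in 3.97% of all 32851 windows. TGGTGNAA was found in 2 of the 12 member windows, 0.763% of the pathway windows and 3.23% of all windows. TGACGNAA was found in 1 of the 12, 3.82% and 1.59%, and TGACGTCA in 0 of the 12, 2.29% and 1.79%. Windows of Mthfd2, Atf4, Atf5, Ddit3, Phgdh and Shmt2 held none of the 4 forms, which says only that these letters are not in these windows.

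The members were chosen by symbol with earlier results of these same libraries in view, so that they count as selected on their knockout and control values. Their differences between genotypes are therefore given as a description and support nothing by themselves. Levels are counts per 1000000 (CPM) after TMM scaling, and fold changes with standard errors come from edgeR's quasi-likelihood fit over all 14767 genes that passed the filter. Library totals lay between 13956786 and 17538044 estimated counts, and the members' rows together held 9877 to 11134 counts in knockout libraries and 8045 to 9424 in control libraries. The labels number the libraries without saying that each is a separate mouse, so the spread between them may be in part technical. Values of a group are listed in the order of its libraries 1, 2 and 3.

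Libraries stood apart in ways that bear on every value below. Adcy3, the deleted gene, stood at 25.4 ± 4.36 CPM in knockouts and 154 ± 17.7 CPM in controls (SD, n = 3 each), with every knockout below every control. Adipocyte markers were abundant in every library. Ucp1, a brown adipocyte marker, stood at 7290 ± 265 CPM in knockouts and 5750 ± 316 CPM in controls (SD, n = 3 each). Adipoq, a marker of adipocytes in general, stood at 316 ± 27.4 CPM in knockouts and 299 ± 15.5 CPM in controls (SD, n = 3 each). A list of 20 skeletal muscle markers made up 0.945%, 0.07% and 0.00621% of counts in the knockouts and 2.26%, 2.03% and 1.71% in the controls (p = 0.1 by an exact permutation over libraries, two-sided, which 6 libraries cannot go below). All 20 were lower in knockouts by fold change, no marker was at 0 in every library, and the first principal component, with 60.4% of the variance, placed knockout library 1 nearer to the controls than knockout libraries 2 and 3. The second component, with 17.1%, placed knockout library 1 far from the rest. Summed fibroblast markers ranged from 337 to 537 CPM in knockouts and from 576 to 848 CPM in controls (9 of 10 negative), and macrophage markers from 70.8 to 153 CPM in knockouts and from 96.3 to 195 CPM in controls (10 of 10 negative). Endothelial markers ranged from 667 to 837 CPM in knockouts and from 693 to 921 CPM in controls (7 of 10 positive). Brown adipocyte markers ranged from 10200 to 10800 CPM in knockouts and from 8360 to 9270 CPM in controls (10 of 10 positive). General adipocyte markers, Adipoq among them, ranged from 10700 to 12900 CPM in knockouts and from 9940 to 11400 CPM in controls (7 of 7 positive). White adipocyte markers ranged from 185 to 307 CPM in knockouts and from 269 to 294 CPM in controls (1 of 7 positive). Schwann cell markers ranged from 120 to 134 CPM in knockouts and from 125 to 176 CPM in controls (2 of 7 positive), and lymphocyte markers from 5.91 to 6.90 CPM in knockouts and from 8.78 to 10.2 CPM in controls (1 of 3 positive). In whole tissue, fewer cells of a type and less RNA per cell cannot be told apart. The part of these markers in the members' values was tested only for muscle, by a covariate described further on.

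The mitochondrial folate enzyme Mthfd2 had the highest fold change of the 10 genes. Mthfd2 (ENSMUSG00000005667, GRCm38 chr6:83305691-83325908, minus strand) encodes the NAD-dependent dehydrogenase and cyclohydrolase that is low in most adult tissues and high in dividing cells. Its level was 7.78, 9.97 and 12.5 CPM in the knockouts and 4.83, 3.95 and 4.09 CPM in the controls. The estimated counts behind these were 115, 153 and 211 in knockouts and 82, 69.2 and 61 in controls. Every knockout was above every control, and the knockout mean was 2.35 times the control mean (log2 fold change 1.23 ± 0.22, SE). An unclassified gene model, Gm43890, overlaps 2799 bases of the Mthfd2 gene on the same strand, so that reads there could belong to either.

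Asns differed by less than Mthfd2 but with narrower spread. Asns (ENSMUSG00000029752, chr6:7675169-7693254, minus strand) encodes asparagine synthetase, a textbook ATF4 target that makes asparagine from aspartate and glutamine. It measured 46.8, 51.8 and 55.8 CPM in the knockouts and 33.6, 34.5 and 37.1 CPM in the controls. The groups did not overlap, the knockouts being higher, and the ratio of means was 1.47 (log2 fold change 0.55 ± 0.12, SE).

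Chac1 was the member that lay furthest the other way. Chac1 (ENSMUSG00000027313, chr2:119351229-119354381, plus strand) encodes a cyclotransferase that breaks down glutathione and is induced by ATF4 together with ATF3 and CHOP in other cells. It was at 3.86, 3.52 and 1.37 CPM in the knockouts, against 7.71, 13.9 and 12.3 CPM in the controls. The counts were 57, 54 and 23 in knockouts and 131, 242 and 183 in controls. Every knockout was below every control, with a knockout mean at 0.258 of the control mean (log2 fold change -1.96 ± 0.39, SE). Of the members with a TGATGNAA match in the window, Asns and Trib3 (log2 fold change 0.79 ± 0.43, SE) had positive fold changes and Chac1 a negative one. A link between the match and the fold change was not tested.

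**Figure D1:**
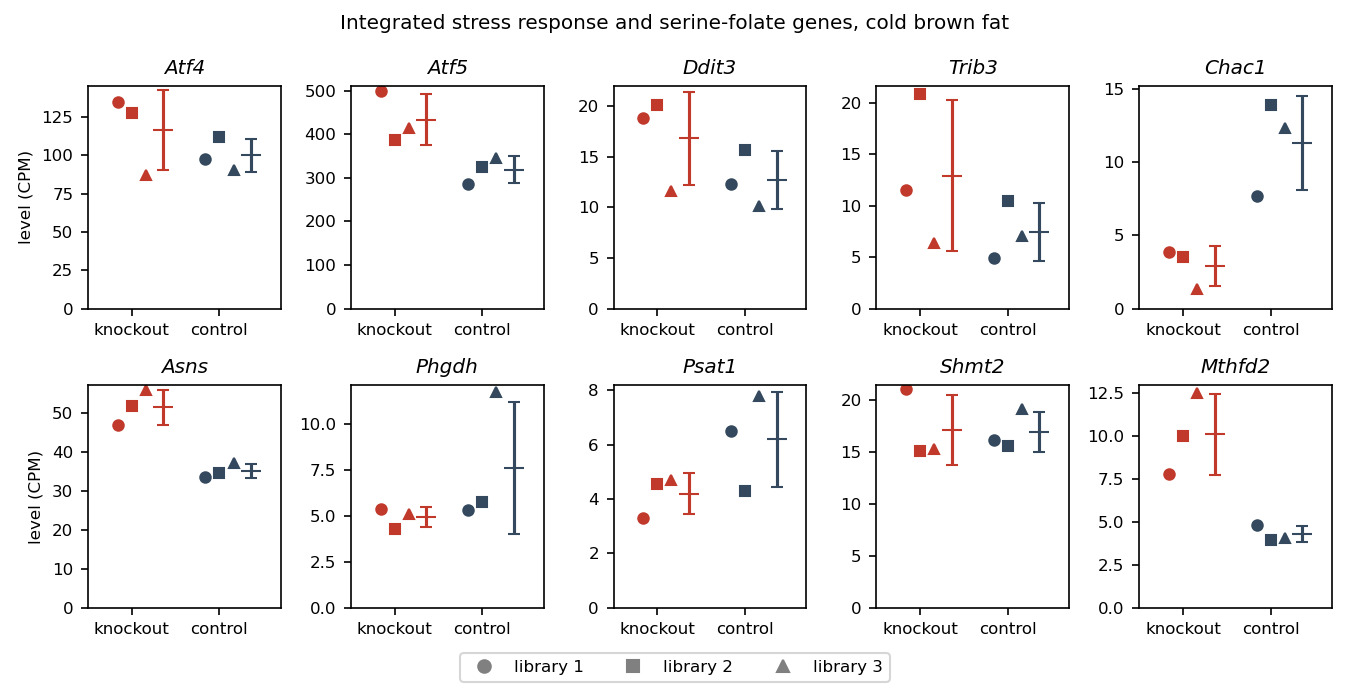
Level of each of the 10 genes in CPM (vertical axes, each from 0) in the 3 knockout libraries (red, left) and the 3 control libraries (blue, right); points are libraries, with a symbol for each library number, and bars beside them show the mean ± SD. Mthfd2, Asns and Atf5 have every knockout above every control, Chac1 has every knockout below every control, and the groups overlap for the other 6 genes.

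The stress response transcription factors were among the most abundant members. Atf5 (ENSMUSG00000038539, chr7:44812256-44816658, minus strand), a relative of ATF4 known for the mitochondrial unfolded protein response, measured 500, 386 and 415 CPM in the knockouts. In the controls it stood at 285, 324 and 346 CPM. Every knockout was above every control, by 1.36 times in the means (log2 fold change 0.45 ± 0.15, SE). Atf5 overlaps Nup62 by 571 bases and Il4i1 by 272 bases, both on the other strand, and no source states that counting used strand.

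Atf4 itself did not separate the groups. Atf4 (ENSMUSG00000042406, chr15:80255184-80257541, plus strand) was at 135, 128 and 87.1 CPM in the knockouts and at 97.9, 112 and 90.5 CPM in the controls. Knockout library 3 lay below every control and knockout libraries 1 and 2 above every control (log2 fold change 0.22 ± 0.18, SE). The value was 0.10 without knockout library 1, 0.39 without knockout library 3 and 0.12 without control library 3.

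Ddit3 and Trib3 varied widely within each group. Ddit3 (ENSMUSG00000025408, chr10:127290774-127296288, plus strand) encodes CHOP, a transcription factor of prolonged stress, and measured 18.8, 20.1 and 11.6 CPM in the knockouts against 12.3, 15.7 and 10.1 CPM in the controls. Its log2 fold change was 0.40 ± 0.25 (SE), and it overlaps the tRNA synthetase gene Mars on the other strand by 68 bases. Trib3 (ENSMUSG00000032715, chr2:152337422-152344032, minus strand), a CHOP and ATF4 target that feeds back on both, stood at 11.5, 20.8 and 6.35 CPM in knockouts and 4.89, 10.4 and 7.04 CPM in controls. The groups overlapped for both genes, and the Trib3 log2 fold change was 0.79 ± 0.43 (SE). Without knockout library 2 it was 0.26 for Trib3 and 0.26 for Ddit3, which was 0.61 without knockout library 3 and 0.23 without control library 3.

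The first enzymes of serine synthesis had negative fold changes. Phgdh (ENSMUSG00000053398, chr3:98313170-98339990, minus strand), the first enzyme of serine synthesis from glycolysis, was at 5.35, 4.30 and 5.11 CPM in the knockouts and 5.30, 5.73 and 11.7 CPM in the controls. Control library 3 stood at about the sum of the other 2 controls, and the log2 fold change was -0.62 ± 0.32 (SE) with that library and -0.20 without it. Phgdh has 19 near-copies in the table, of 90.4% to 98.7% identity, but these held only 0 to 4 counts per library, and adding them left the log2 fold change at -0.61. Psat1 (ENSMUSG00000024640, chr19:15904678-15947337, minus strand), the aminotransferase of the next step, was at 3.32, 4.56 and 4.69 CPM in knockouts and 6.48, 4.30 and 7.78 CPM in controls (log2 fold change -0.56 ± 0.27, SE). The groups overlapped for both genes.

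Shmt2 (ENSMUSG00000025403, chr10:127517123-127522444, minus strand), the mitochondrial enzyme that feeds carbon from serine to MTHFD2, measured 21.1, 15.1 and 15.3 CPM in the knockouts. The controls gave 16.2, 15.6 and 19.2 CPM. Knockout library 1 lay above every control and knockout libraries 2 and 3 below every control, and the log2 fold change was 0.01 ± 0.18 (SE).

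Over the 10 genes, 7 fold changes were positive and 3 negative, with a median log2 fold change of 0.31, beside 0.01 over all genes tested. That median was 0.20 without knockout library 2, 0.18 without control library 3 and 0.49 with the muscle covariate described below. At an adjusted p under 0.05 edgeR called 0 of the 10, where 0.0609% of all genes tested were called (4 higher and 5 lower). At an unadjusted p under 0.05 the count was 4 of 10, against 10.5% of all genes. Groups that do not overlap were found for 4 of 10 members and for 18.4% of all genes, 7.63% with all knockouts above and 10.8% with all knockouts below. Since these differences were known when the genes were chosen, nothing is read from those counts. DESeq2's Wald test called 3 of the 10, Mthfd2 and Asns higher and Chac1 lower, where 2.08% of all genes were called (0.21% higher and 1.87% lower), and limma-voom called 0 of the 10 with 0.223% of all genes called.

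The calls of these 3 genes depended on knockout library 1, the tool and the low-count filter. Without knockout library 1 edgeR called Mthfd2 (log2 fold change 1.39) and Asns (0.62) higher and Chac1 (-2.22) lower, while the share of all genes called was 5.64% (0.296% higher and 5.35% lower). Leaving out any other single library called 0 of the 10, where 0.0262% (without knockout library 2), 0.033% (without knockout library 3), 0.0266%, 0.0264% and 0.0331% (without control library 1, 2 or 3) of all genes were called. Without the low-count filter edgeR called Mthfd2, Asns and Trib3 higher and Chac1 lower, where 2.8% of all genes were called (0.348% higher and 2.45% lower). With the replicate number as a block it called 0 of the 10 and 0.0271% of all genes. With the mean log2 CPM of the muscle markers as a covariate none of the 10 was called, and the share of all genes called was 0.0948%. In that fit the log2 fold changes of Mthfd2 (0.78), Asns (0.38) and Chac1 (-1.20) were smaller in size. Those of Atf4 (0.60), Atf5 (0.61), Ddit3 (0.82), Trib3 (1.25), Shmt2 (0.29) and Psat1 (-0.90) were larger in size, and that of Phgdh was -0.61. Over 15 other fits, those with a library left out among them, 9 of the 10 genes kept their sign in every fit. Shmt2 was positive in 9 of 15. It was 0.00 after rounding with limma-voom, the replicate block and another low-count filter. Negative values came without knockout library 1 (-0.16), control library 1 (-0.04) or control library 2 (-0.07).

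**Figure D2:**
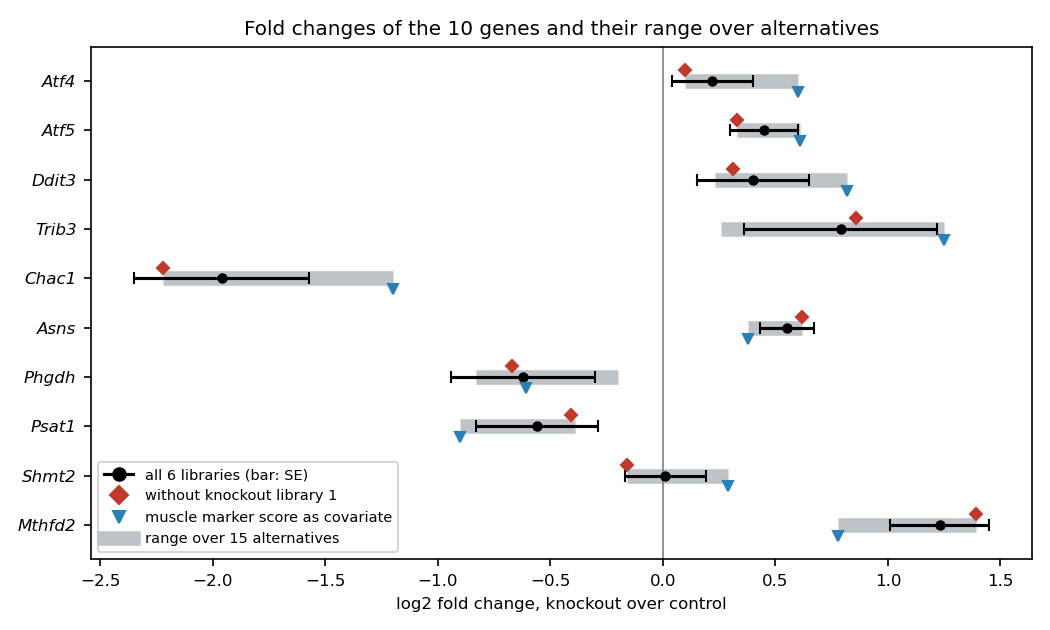
Log2 fold change, knockout over control, of the 10 genes (horizontal axis); black points with bars are the fit to all 6 libraries with its SE, grey bands the range over 15 alternatives, red diamonds the fit without knockout library 1 and blue triangles the fit with the muscle score added to the model. Mthfd2 ranges from 0.78 to 1.39, Asns from 0.38 to 0.62 and Chac1 from -2.22 to -1.20, while Shmt2 crosses 0.

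The knockout libraries were not alike among themselves. Knockout library 3 was the lowest of the 3 for 4 members, Atf4, Ddit3, Trib3 and Chac1, and the highest for Mthfd2, Asns and Psat1. The muscle marker score, a mean of log2 CPM, was 8.37, 4.52 and 0.79 in the knockouts, and the knockout with fewer muscle counts had more Mthfd2 and Asns and less Chac1 in every pair. The 3 controls had muscle scores of 9.60, 9.40 and 9.19, a narrower span, and did not repeat this order for Mthfd2 and Chac1. Control library 1, with the highest of these scores, had the most Mthfd2 (4.83 CPM, against 3.95 and 4.09). It also had the least Chac1 (7.71 CPM, against 13.9 and 12.3). Asns did rise as the control score fell (33.6, 34.5 and 37.1 CPM). Every knockout had a lower score than every control, so that the covariate and the genotype overlap in what they can fit.

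**Figure D3:**
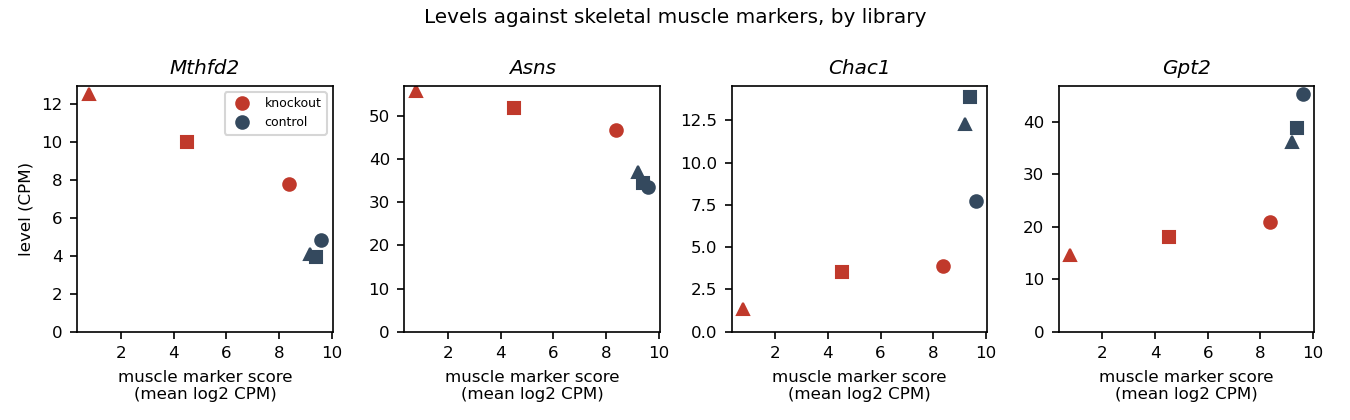
Level in CPM (vertical axes, from 0) of Mthfd2, Asns, Chac1 and the alanine aminotransferase gene Gpt2 against the mean log2 CPM of 20 skeletal muscle markers (horizontal axes) in knockout (red) and control (blue) libraries; symbols mark library numbers as in the plot of levels. The scores are 8.37, 4.52 and 0.79 in the knockouts and 9.19 to 9.60 in the controls, and in each of the 4 genes the groups do not overlap.

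To set levels of different genes side by side, CPM was divided by the length in kb of the longest protein-coding GENCODE transcript. Atf5 was the most abundant at 239 ± 32.6 CPM per kb in knockouts and 175 ± 17.2 in controls (SD, n = 3 each). Atf4 followed at 67.6 ± 15 and 58 ± 6.33, then Asns at 25.5 ± 2.23 and 17.4 ± 0.903, and Ddit3 at 18.9 ± 5.11 and 14.3 ± 3.16 CPM per kb, in knockouts and controls in turn. Asns and Ddit3 overlapped in controls and not in knockouts. Shmt2 was the fifth in both groups, at 7.49 ± 1.48 CPM per kb in knockouts and 7.43 ± 0.855 in controls.

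The low end of the order differed most between the genotypes. In knockouts it ran Trib3 (6.36 ± 3.61 CPM per kb), Mthfd2 (4.84 ± 1.14), Phgdh (2.60 ± 0.289), Chac1 (1.78 ± 0.826) and Psat1 (1.60 ± 0.290), and neighbours overlapped except Mthfd2 and Phgdh. In controls it ran Chac1 (6.89 ± 1.95 CPM per kb), Phgdh (4 ± 1.88), Trib3 (3.67 ± 1.36), Psat1 (2.36 ± 0.672) and Mthfd2 (2.06 ± 0.226), where each pair of neighbours overlapped. Mthfd2 was thus the seventh of 10 in knockouts and the tenth in controls, and Chac1 the ninth and the sixth. With the union of all annotated exons as the length, an alternative chosen after seeing the data, Mthfd2 had the same places and Chac1 was the ninth and the fifth. Shmt2 was then the sixth in both groups and Trib3 the fifth in knockouts.

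The closest family relatives were measured in the same libraries, and none passed the test. Mthfd2l, the mitochondrial enzyme most like MTHFD2, stood at 6.89 ± 0.943 CPM in knockouts and 5.95 ± 0.587 CPM in controls (SD, n = 3 each; log2 fold change 0.21 ± 0.19, SE; edgeR adjusted p = 0.754). Per kb of transcript, Mthfd2 was above Mthfd2l in each knockout library (3.73, 4.78 and 6.01 against 3.45, 2.69 and 3.44) and below it in each control (2.32, 1.90 and 1.96 against 3.03, 2.76 and 2.48). With union exon lengths Mthfd2 was above Mthfd2l in the control means too (1.23 against 0.896 CPM per kb), so the order in controls depends on the length used. Mthfd1, the cytosolic enzyme that carries all 3 folate activities, was at 22.9 ± 1.63 CPM in knockouts and 21.6 ± 0.577 CPM in controls (log2 fold change 0.08 ± 0.12, SE; edgeR adjusted p = 0.872). Mthfd1l, its mitochondrial partner, was at most 1.07 CPM in any library.

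Chac2, which encodes the constitutive form of the glutathione-degrading enzyme, was at 7.05 ± 1.31 CPM in knockouts and 5.62 ± 0.8 CPM in controls (SD, n = 3 each; log2 fold change 0.33 ± 0.21, SE, or 0.18 without knockout library 1; edgeR adjusted p = 0.633). Per kb, Chac1 was below Chac2 in every knockout (2.36, 2.15 and 0.834 against 6.43, 4.46 and 5.19) and above it in every control (4.71, 8.47 and 7.49 against 3.72, 4.92 and 4.18). The union exon length equals the transcript length for both genes. Shmt1, the cytosolic counterpart of SHMT2, had a log2 fold change of 0.00 ± 0.18 (SE), Trib1 0.07 ± 0.18 and Trib2 -0.21 ± 0.15, and none passed the test. Atf3 ranged from 4.93 to 16.2 CPM in knockouts and from 3.75 to 24.3 CPM in controls (log2 fold change 0.00 ± 0.68, SE), and its value ran from -0.45 without control library 3 to 1.17 without control library 2.

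**Figure D4:**
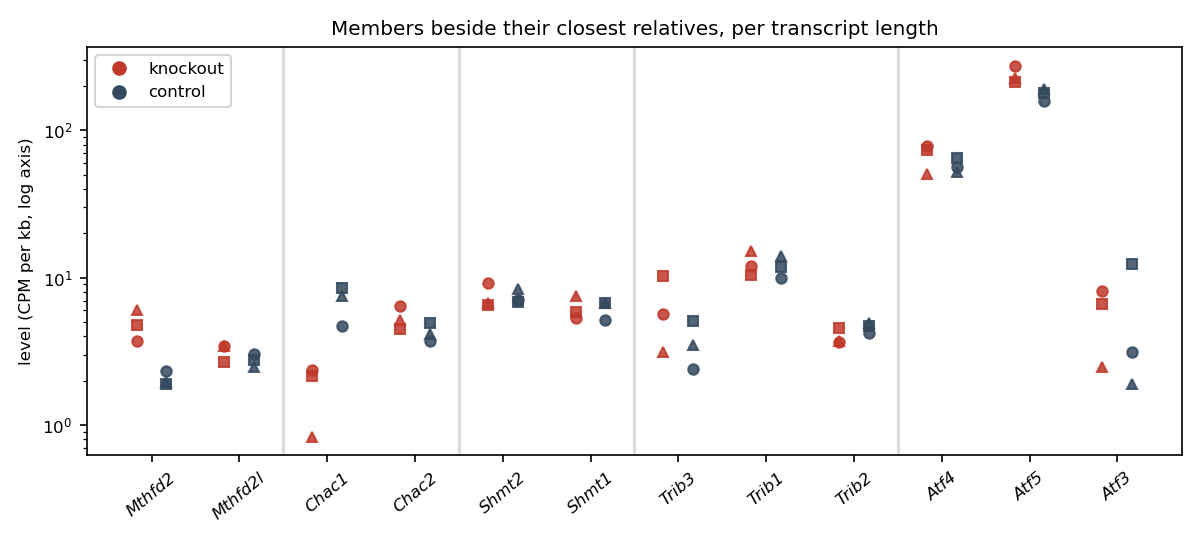
Level in CPM per kb of the longest coding transcript (vertical log axis) of members and their closest relatives in each knockout (red, left) and control (blue, right) library; symbols mark library numbers. Chac1 lies below Chac2 in the knockouts and above it in the controls, and Mthfd2 lies above Mthfd2l in the knockouts and below it in the controls.

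The rest of the pathway was followed through 9 lists of genes and the list of relatives, 141 genes in all outside the members, of which 134 were tested. None was called by edgeR over all genes at an adjusted p under 0.05; 8 were higher and 4 lower at an unadjusted p under 0.05, or 8.96% of them beside 10.5% of all genes tested. DESeq2 and limma-voom each called 1 of the 134, which was Gpt2, where 2.08% and 0.223% of all genes were called. Positive fold changes were found for 88 of the 134 (65.7%), against 51.7% of all genes tested. All knockouts lay above all controls for 18 of the 134 and below for 10, beside 7.63% and 10.8% of all genes tested. The lists were chosen with earlier results of these libraries known.

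Genes upstream of ATF4 had fold changes of both signs. Of 18 kinases, phosphatase subunits, eIF2 and eIF2B subunits and sensors, 0 were called, 0 had an unadjusted p under 0.05 and 10 had positive fold changes (median log2 fold change 0.03). The genes with the smallest p were Eif2b4 (log2 fold change 0.29 ± 0.14, SE), Eif2b1 (0.16 ± 0.12), both subunits of the exchange factor that phosphorylated eIF2 blocks, and Oma1 (-0.28 ± 0.19), the mitochondrial protease that relays mitochondrial stress. Eif2ak3, which encodes the kinase PERK, stood at 13.6 ± 2.94 CPM in knockouts and 13.0 ± 0.926 CPM in controls (SD, n = 3 each) and was named after its values were seen. Of 12 bZIP partners and relatives of ATF4, 0 were called and 9 were positive (median 0.13), led by Nfe2l2 (0.31 ± 0.13), the factor of the antioxidant response, Cebpg (0.21 ± 0.12), a dimer partner of ATF4, and Xbp1 (-0.33 ± 0.19).

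Other targets of ATF4 pointed both ways. Of 17 tested, 0 were called, 11 were positive and 6 negative (median log2 fold change 0.11), and 4 had an unadjusted p under 0.05, 1 of them higher and 3 lower. All knockouts lay above all controls for 0 of the 17 and below for 4, beside 7.63% and 10.8% of all genes tested. Gpt2 came closest of all the pathway genes to the threshold. It encodes mitochondrial alanine aminotransferase and measured 20.9, 18 and 14.6 CPM in the knockouts and 45.3, 38.9 and 36.2 CPM in the controls. Every knockout was below every control, with a log2 fold change of -1.17 ± 0.17 (SE; edgeR adjusted p = 0.0741). Gpt2 was called by DESeq2 (adjusted p = 3.19e-07) and limma-voom (adjusted p = 0.0467). It was also called by edgeR without knockout library 1 (-1.30, adjusted p = 0.00049) or without the low-count filter (adjusted p = 1.07e-08). With the muscle score as a covariate edgeR did not call it (-0.84, adjusted p = 0.289). Nor did edgeR call it with RLE or upper-quartile scaling, another low-count filter, the replicate block or unrounded counts. Leaving out any other single library also gave no call (edgeR adjusted p from 0.209 to 0.373). Among the knockouts, Gpt2 was lower where the muscle marker score was lower. The controls followed the same order, with 45.3, 38.9 and 36.2 CPM at scores of 9.60, 9.40 and 9.19. Rcan1, a calcineurin inhibitor, was at 36.5 ± 9 CPM in knockouts and 55.1 ± 6.72 CPM in controls (SD, n = 3 each; -0.59 ± 0.19, SE; edgeR adjusted p = 0.318). Pycr1, of proline synthesis, was at 0.556 ± 0.0893 CPM in knockouts and 1.04 ± 0.246 CPM in controls (edgeR adjusted p = 0.472).

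Amino acid transporters induced by ATF4 were the list with a negative median. Of 9 tested, 0 were called, 2 were positive and 7 negative, with a median log2 fold change of -0.38. All knockouts lay above all controls for 0 of the 9 and below for 2 (Slc43a1 and Slc38a1), beside 7.63% and 10.8% of all genes tested. The negative genes other than Slc1a5 were low, with group means of at most 6.05 CPM. Slc1a5 stood at 362 ± 18.1 CPM in knockouts and 369 ± 66.8 CPM in controls (-0.02 ± 0.15, SE). Slc38a2, positive like Slc3a2, stood at 110 ± 39.6 CPM in knockouts and 102 ± 31.9 CPM in controls (0.11 ± 0.30, SE). That median was -0.19 without knockout library 1 and -0.82 without knockout library 2. Slc43a1, a carrier of large neutral amino acids, was at 2.52 ± 0.812 CPM in knockouts and 5.08 ± 1.34 CPM in controls (SD, n = 3 each; -1.01 ± 0.32, SE; edgeR adjusted p = 0.318). Slc3a2, the shared heavy chain of several carriers, was at 159 ± 26.9 CPM in knockouts and 123 ± 15.9 CPM in controls (0.37 ± 0.16, SE; edgeR adjusted p = 0.491). Slc38a1, a glutamine carrier, was at most 1.12 CPM in any library (-1.22 ± 0.55, SE). The list of cytosolic tRNA synthetases also held Xpot (0.12 ± 0.19, SE), which encodes a tRNA exporter. Of its 13 genes, 0 were called and 10 were positive, Xpot among them (median 0.13). The smallest p values were those of Sars (0.28 ± 0.13, SE), Wars (0.26 ± 0.12) and Aars (0.18 ± 0.12). Without control library 1 these were 0.17, 0.17 and 0.11. Every knockout was above every control for 4 of the 13 (those 3 and Yars) and below for 1 (Eprs), beside 7.63% and 10.8% of all genes tested.

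Of the 28 other serine, glycine and folate genes tested, 0 were called and 17 were positive (median log2 fold change 0.12). Slc25a32, which carries folate into mitochondria, was at 72.9, 76.3 and 75.6 CPM in the knockouts and 63.1, 60.3 and 54.6 CPM in the controls (0.34 ± 0.11, SE; edgeR adjusted p = 0.339). Tyms, thymidylate synthase, was at 5.38 ± 0.807 CPM in knockouts and 3.73 ± 0.0491 CPM in controls (SD, n = 3 each; edgeR adjusted p = 0.434). Psph, the last enzyme of serine synthesis, was at 31.7 ± 5.64 CPM in knockouts and 24.6 ± 1.55 CPM in controls (0.37 ± 0.16, SE; edgeR adjusted p = 0.465). Psph thus had a fold change of opposite sign to Phgdh and Psat1, and its value was 0.22 without knockout library 1. Every knockout was above every control for 4 of the 28 (Slc25a32, Tyms, Psph and Dld) and below for 2 (Sds and Mtfmt), beside 7.63% and 10.8% of all genes tested.

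Methionine, transsulfuration and glutathione genes had 0 of 16 called and 11 positive (median log2 fold change 0.10). The smallest p values were those of Gclm (0.31 ± 0.12, SE), the modifier subunit of the enzyme that starts glutathione synthesis, Gss (0.36 ± 0.16), glutathione synthetase, and Gpx4 (0.45 ± 0.19), a glutathione peroxidase for lipid peroxides. None passed the test over all genes (edgeR adjusted p = 0.416, 0.477 and 0.467). Every knockout was above every control for these 3 of the 16 genes and below for 0, beside 7.63% and 10.8% of all genes tested. The value of Gpx4 was 0.22 without knockout library 1 and that of Gss 0.22 without control library 3. Of 11 chaperones and factors of the other branches of the unfolded protein response, 0 were called, and all 11 had positive but small fold changes (median 0.14), led by Edem1 (0.20 ± 0.12), Creld2 (0.32 ± 0.22) and Manf (0.30 ± 0.21). Without knockout library 1 Creld2 was at 0.10, Manf at 0.07 and the list median at 0.07. Of 8 mitochondrial chaperones and proteases, 0 were called and 6 were positive (median 0.18), led by Hspe1 (0.34 ± 0.16), Clpp (0.36 ± 0.18) and Hspd1 (0.21 ± 0.12). Hspe1 was at 0.18 and Clpp at 0.17 without knockout library 1, and Hspd1 at 0.11 without control library 3.

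**Figure D5:**
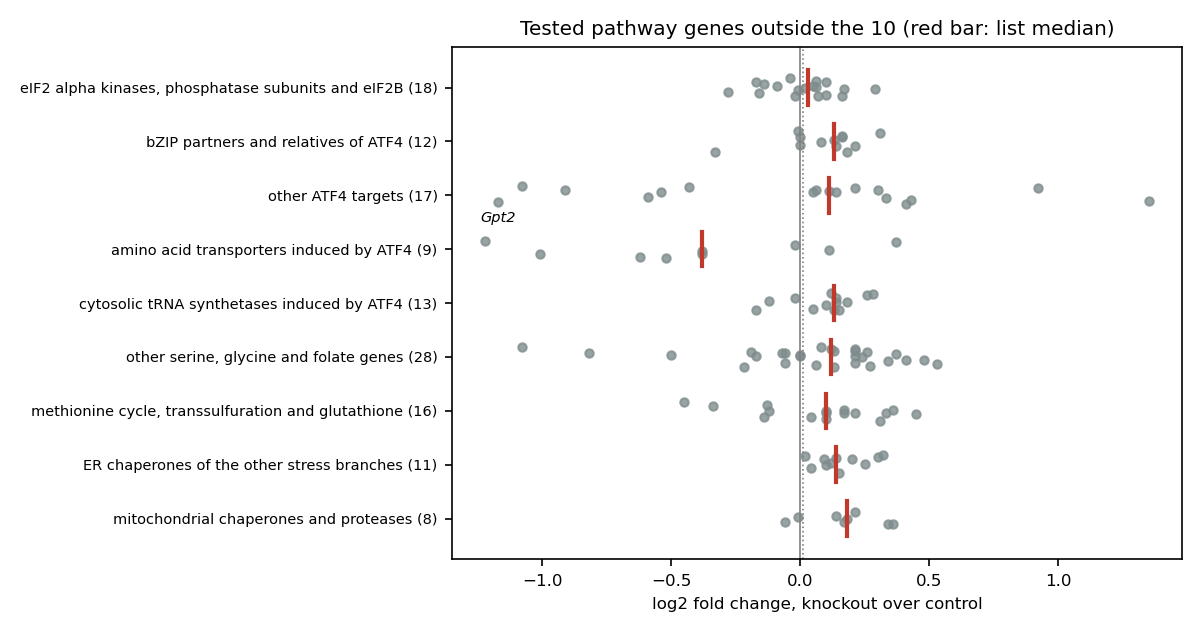
Log2 fold change, knockout over control, of each tested pathway gene outside the 10 (grey points, horizontal axis) by list, with the number tested in brackets and the list median as a red bar; the dotted line marks the median of all genes tested, 0.01. Medians lie between 0.03 and 0.18 except that of the amino acid transporters, -0.38, and Gpt2 lies at -1.17. With 1 library left out, the medians of the eIF2, bZIP and other ATF4 target lists each fall to -0.04 at their lowest.

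The mean profile of the 10 genes did not separate the genotypes. Their mean standardised log2 CPM was 0.46, 0.33 and -0.22 in the knockouts and -0.46, -0.19 and 0.08 in the controls, so that the groups overlapped. Members with fold changes of opposite sign, such as Mthfd2 and Chac1, offset each other in this mean. Its overlap therefore says nothing about single genes. Of 9789 other genes with a mean of at least 5 CPM, the most alike by Pearson's r over the 6 libraries were Grk2 (0.986), Tapbpl (0.981), Itpa (0.979), Rnf215 (0.977) and Hsd3b7 (0.974). None of these 5 was among the 5 most alike when knockout library 1 was left out. These r values are the highest of 9789 searched over 6 libraries and were not tested, so they are given as a description only.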

How the data were processed

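Values deposited by the authors were estimated counts for each gene, with fractions and no scaling as the values show, in 6 columns matched to samples by name. The submitters' processing notes name StringTie, Salmon, edgeR and the build GRCm38; versions, settings, annotation and strand use are not given there. Symbols and positions came from GENCODE vM21, with 54131 identifiers matched and 254 not; 1 listed gene (Gcn1) was found by its RefSeq synonym.

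Estimated counts were rounded. Genes passing filterByExpr (minimum count 10, minimum total 15) were tested with edgeR 4.0.16 in R 4.3.3 (TMM, glmQLFit and glmQLFTest, genotype as the only term, two-sided, Benjamini-Hochberg over all genes); the common biological coefficient of variation was 25.2%. Near-copies were sought with blastn 2.17.0 (at least 90% identity over 200 bases). The edgeR step was tested on simulated data. Other fits used DESeq2 1.42.0 (Wald test), RLE or upper-quartile scaling, limma-voom 3.58.1, other filters, a replicate block, each library left out, a muscle covariate and unrounded values.

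The members and lists were chosen with earlier results of these data known. Named genes were the members, their relatives and, from each pathway list, its called genes or else the 3 with the smallest p. Also named were the 5 genes most like the members' mean profile. Eif2ak3, Fgf21, Folr2, Cebpb, Cebpd, Yars, Eprs, Dld, Sds, Mtfmt, Slc1a5, Slc38a2 and Xpot were named after their values were seen. No 2 libraries were alike enough to be duplicates: chi-square per degree of freedom was 10.8 or more.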

Additional observations from a re-analysis of the deposited data

How the results depend on the processing

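Calls over all genes were 4 higher and 5 lower in knockouts with edgeR. They were 31 higher and 276 lower with DESeq2, 6 higher and 27 lower with limma-voom, 111 higher and 782 lower without the low-count filter, and 7 higher and 7 lower with the muscle score added to the model. Leaving out 1 library gave 3 to 45 higher and 1 to 812 lower, the upper ends without knockout library 1. Members called were 2 higher and 1 lower with DESeq2, 3 higher and 1 lower without the low-count filter, and 0 to 2 higher and 0 to 1 lower with 1 library left out. Pathway genes called were 1 of 134, lower, with DESeq2 and with limma-voom. Without the filter they were 4 of 140 (Fgf21 higher, and Folr2, Gpt2 and Rcan1 lower). Without knockout library 1 they were 4 of 135 (Folr2, Gpt2, Rcan1 and Slc43a1, all lower), and 0 with any other library left out. The share of all genes called was 2.08% with DESeq2, 0.223% with limma-voom and 2.8% without the filter. It was 5.64% without knockout library 1 (0.296% higher and 5.35% lower) and 0.0262% to 0.0331% with any other library left out. The cause of these shifts was not tested.

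The labels give both groups replicates 1 to 3. With the replicate number as a block the calls were 2 higher and 2 lower, with 0 members. Same-numbered libraries had correlations of deviations from their group means of 0.09, 0.11 and 0.08, and each library correlated best with its own number. Deviations within a group cancel out, so these low correlations are tied to each other and cannot decide whether the numbers mark pairs. The labels do not say so either, and the numbers were not taken as pairs. Relatives near 0 changed sign without passing: Mthfd1l (0.13) was at -0.05 without knockout library 1, -0.13 without knockout library 3 and -0.39 without control library 1, and up to 0.52 with another library left out; Trib1 (0.07) was at -0.10 without knockout library 3, -0.06 without control library 1, up to 0.19 with another library left out, and -0.17 with the muscle covariate. The muscle marker share of counts differed by -1.66 percentage points, and by -1.96 to -1.49 with 1 library left out. Low genes rest on few counts: Slc38a1 had 3 to 19.1 per library. List medians that changed sign with 1 library left out were those of the eIF2 list (0.03, lowest -0.04 without control library 3), bZIP partners (0.13, -0.04 without control library 1), other ATF4 targets (0.11, -0.04 without knockout library 1) and relatives (0.07, -0.09 without control library 1).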

Other observations

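Cebpb, a dimer partner of ATF4, measured 327, 145 and 104 CPM in the knockouts and 117, 217 and 176 CPM in the controls. Cebpd, a related factor of acute responses, measured 12.6, 4.5 and 3.03 CPM in the knockouts and 6.18, 8.08 and 5.83 CPM in the controls. Atf3 was highest in control library 2, at 24.3 CPM. Fgf21, a hormone induced by ATF4 in other tissues, was at 2.64, 4.11 and 1.37 CPM in the knockouts and 0.883, 1.83 and 0.402 CPM in the controls. Folr2, a folate receptor that also marks tissue macrophages, was at 4.4, 0.847 and 1.25 CPM in the knockouts and 5.89, 2.86 and 4.96 CPM in the controls.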
